A study of Mus musculus with 23 samples.

Results

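Mark2, Mark3 and Mark4 are 3 of the 12 genes targeted by a pool of 26 named guide RNA vectors in mouse lung tumours, and 1 vector of the pool, with 3 guide RNAs in a row, targeted all 3 of them together. The members were chosen by that vector's name in the deposited table and not by a measured value, though earlier results of these data were known. All 3 symbols matched the mouse gene table as protein-coding genes. Barcodes with an estimate of 500 cells or more were counted as tumours, and 17905 of 324965 tumours of named vectors carried the Mark2/Mark3/Mark4 vector (5.51%). Because the genes were never targeted one by one, each value below belongs to the vector and cannot be assigned to a single Mark gene. The table holds no expression values and no reads of the target sites, so the cutting of the 3 genes was not measured.

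The Mark proteins are the microtubule affinity-regulating kinases, the mammalian relatives of the polarity kinase Par-1. They phosphorylate microtubule-associated proteins such as tau and release them from microtubules, and they take part in cell polarity. They belong to the AMPK-related kinases, which share activation by the tumour suppressor kinase Lkb1 (Stk11) through phosphorylation of the activation loop, together with the Ampk catalytic subunits, the salt-inducible kinases (Sik), the Nuak kinases and Snrk. Loss of Lkb1 is known to speed lung tumour growth in mice.

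Tumour barcode sequencing (Tuba-seq) reads, from genomic DNA of a whole tumour-bearing lung, a vector identifier and a clonal barcode for each tumour, and scales reads to cells. The mice were of a mixed BL6/129 strain, and tumours grew for 4 months. All groups carried the Cre-activated reporter R26LSL-Tomato on the same tumour-prone background. KT mice (4 compared of 5 labelled) carried nothing beyond what all groups share, so without Cas9 their guide RNAs cannot cut. KT_Cas9 mice (10 of 10) also carried H11LSL-Cas9. KTL_Cas9 mice (7 of 8) carried H11LSL-Cas9 and Lkb1flox/flox, so their inert tumours too are designed to lack Lkb1. Inert tumours were those of 2 vectors with guides against Neo or non-targeting guides only, and every value for the Mark vector was set against inert tumours of the same mouse.

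The reads that stand for the Mark vector are its 8-base identifier and, behind it, a 30-base barcode that tells one tumour from another. The identifier and the barcode of the largest Mark tumour in each group are printed because the whole measurement rests on them. Capitals mark the fixed bases that frame every barcode, and lower case the identifier and the variable bases.
Mark2/Mark3/Mark4 vector identifier: gatgagag
Largest Mark tumour of KT mice: GCtgataTAggggcGCttaggTAggtggGC
Largest Mark tumour of KT_Cas9 mice: GCcccccTAcgcccGCgccgcTAgttctGC
Largest Mark tumour of KTL_Cas9 mice: GCgggctTAtctgcGCaggtaTAccacgGC
The KT barcode, from replicate 2, had 3964 reads and 350714 estimated cells. The KT_Cas9 barcode, from replicate 3, had 9957 reads and 625990 estimated cells. The KTL_Cas9 barcode, from replicate 4, had 19554 reads and 1586832 estimated cells. Each of these 3 barcodes was seen in 1 mouse only, but 7.96% of all Mark tumours (1425 of 17905) carried a barcode that the vector also showed in another mouse, against 2.68% of inert tumours and 4.93% of all named tumours. Results were therefore also computed without such barcodes.

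The depth, as reads of named vectors, differed between groups, with a median of 1369971 reads in KT mice (936090 to 1505173), 809416 in KT_Cas9 mice (92713 to 4516887) and 3545821 in the compared KTL_Cas9 mice (2181575 to 8547188). At the floor of 500 cells a tumour had a median of 5.77 reads in KT mice, 6.14 in KT_Cas9 mice and 18.5 in KTL_Cas9 mice. It reached 51.7 in KTL_Cas9 replicate 8, the compared mouse with the fewest Mark tumours (54). KT replicate 4 has no lines in the table and was not analysed here, and KTL_Cas9 replicate 1, with 55852 reads, had 39 Mark barcodes and no Mark or inert tumour of 500 cells, so it was left out. The Mark vector marked between 1039 and 2495 tumours per KT mouse (7739 in all), between 80 and 3453 per KT_Cas9 mouse (9134 in all) and between 54 and 252 per KTL_Cas9 mouse (1032 in all). KTL_Cas9 values thus rest on far fewer tumours per mouse, each backed by more reads. Whether tumour number, genotype and depth contribute separately to the wider spread in that group cannot be told apart.

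The first comparison asked whether the Mark vector changes tumour size where Lkb1 is intact, by setting mice with Cas9 against mice without it. Tumours with the Mark vector did not differ in size from inert tumours by more than the spread between mice in either group. The size measure was the log-normal mean, an estimate of the mean from the logarithms of cell numbers that is less driven by single giant tumours. It was taken as a log2 ratio to inert tumours, where 0 means equal size. The estimate rises with the spread of the logarithms and can exceed the plain mean. The SD of log2 cells of inert tumours averaged 1.34 in KT, 1.03 in KT_Cas9 and 2.75 in KTL_Cas9 mice. In KT mice the ratios were 0.04, 0.11, 0.10 and -0.03 for replicates 1, 2, 3 and 5, with a mean of 0.05 ± 0.06 (SD, n = 4). In KT_Cas9 mice they ran from -0.17 over a median of 0.05 to 0.28, with a mean of 0.04 ± 0.12 (SD, n = 10), and 6 of 10 mice lay above 0. The KT values lay inside the range of the KT_Cas9 values.

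KT_Cas9 minus KT was -0.011 ± 0.05 (SE), a 0.992-fold difference, with a two-sided exact permutation p of 0.855 over mouse labels and of 0.892 after Benjamini-Hochberg adjustment over the 24 targeting vectors. In the same comparison 14 of 24 targeting vectors were higher at an adjusted p under 0.05 (58.3%) and none was lower, and the Mark vector ranked 23 of 24 from the highest. Within KT_Cas9 mice the Mark vector did not differ from inert beyond its spread by an exact sign-flip permutation (p = 0.305, adjusted 0.332), where 18 of 24 vectors were called (75%). The direction of this small value was not stable: the sign turned under other measures of size, and the ratio to inert within KT_Cas9 mice was 0.11 at the 90th percentile of size (exact sign-flip permutation, adjusted p = 0.0148; 8 of 10 mice above 0) and -0.25 on arithmetic means (adjusted p = 0.528).

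The second comparison asked whether the Mark vector acts differently once Lkb1 is already deleted. At the floor of 500 cells its tumours were smaller relative to inert tumours in KTL_Cas9 than in KT_Cas9 mice. On average over mice, 79.8% of inert tumours in KT_Cas9 and 33.0% in KTL_Cas9 mice had under 1500 cells. The ratios of the 2 genotypes thus rest on unlike size distributions at this floor. Whether this adds to the difference was not tested. The log2 size ratios of KTL_Cas9 replicates 2 to 8 were -1.74, -0.79, -1.11, -0.32, -0.98, -0.38 and 0.65, with a mean of -0.67 ± 0.75 (SD, n = 7). In 6 of 7 mice the value lay below every KT_Cas9 mouse, whose lowest was -0.17, and replicate 8 lay above every KT_Cas9 mouse. The groups therefore overlapped only through replicate 8. In cells, the log-normal mean of Mark tumours in replicate 2 was 30942, against 103239 for inert tumours, and in replicate 8 it was 52957 against 33849. The 61 inert tumours of replicate 2 held 3605728 cells in all, so their plain mean was below that log-normal mean.

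KTL_Cas9 minus KT_Cas9 was -0.71 ± 0.29 (SE), a 0.611-fold difference (two-sided exact permutation p = 0.00689, adjusted p = 0.0184). Of the 24 targeting vectors, 8 were called lower (33.3%) and 1 higher (4.17%) in this comparison, and 7 of those 8 target Lkb1 itself, which is floxed in these mice. The Mark vector was the remaining one called, and the median difference over all 24 was -0.18. The triple Ampk1/Ampk2 vector had a larger mean difference, -0.88 ± 0.43 (SE), that missed the threshold by exact permutation (p = 0.0239, adjusted p = 0.0522). The test assumes an equal spread in both groups, while the SD was 0.75 in KTL_Cas9 against 0.12 in KT_Cas9 mice, so this p may be too small. The difference was not called when only larger tumours were counted, at -0.36 (adjusted p = 0.362) from 1500 cells and -0.012 (adjusted p = 0.974) from 5000 cells, nor on arithmetic means (-0.22, adjusted p = 0.671), at the 95th percentile (-0.52, adjusted p = 0.126) or against the triple inert vector alone (-0.84, adjusted p = 0.0663), all by exact permutation. Without barcodes seen in more than 1 mouse it was -0.68 (exact permutation, adjusted p = 0.0224).

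Against KT mice, in which the same vector cannot cut, the Mark ratio in KTL_Cas9 mice was lower by about the same amount, but this did not pass the test. KTL_Cas9 minus KT was -0.72 ± 0.29 (SE), with an exact permutation p of 0.106 and an adjusted p of 0.324. The SD was 0.75 in KTL_Cas9 and 0.06 in KT mice, so the equal spread that the test assumes is missing here too, and this p may also be off. None of the 24 vectors was called in that comparison (0%), although 6 had an unadjusted p under 0.05, and limma called 3. Nor did the Mark vector pass against inert tumours within the 7 KTL_Cas9 mice (exact sign-flip permutation p = 0.0625, adjusted p = 0.167), where the smallest possible p is 0.0156 and none of 24 vectors was called (0%; 7 unadjusted).

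**Figure D1:**
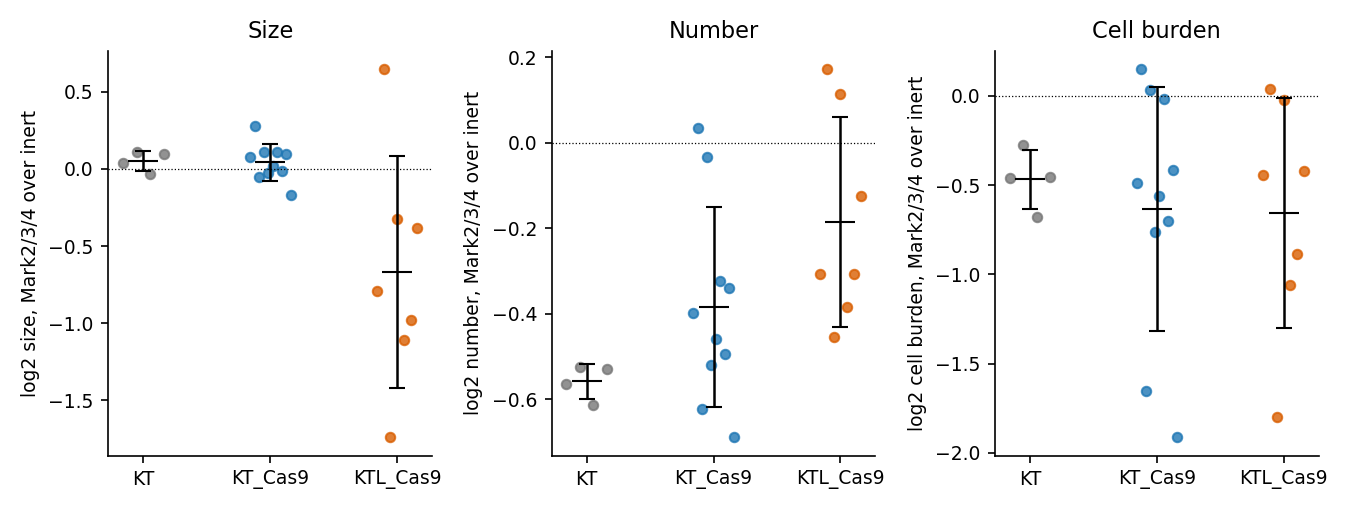
Log2 ratio of Mark2/Mark3/Mark4 to inert tumours of the same mouse for size (log-normal mean cells), number of tumours and cell burden (summed cells), with 1 point per mouse and the mean ± SD as bars. Size lies near 0 in KT and KT_Cas9 mice and below 0 in 6 of 7 KTL_Cas9 mice, while the mean number is lowest in KT mice and burden overlaps across the 3 groups.

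The size distribution was then read at fixed percentiles, which do not assume a log-normal shape. In KT mice the mean log2 ratio of Mark to inert was -0.03 at the median tumour, 0.03 at the 90th and 0.12 at the 95th percentile. In KT_Cas9 mice it was 0.05 at the median, 0.11 at the 90th and 0.16 at the 95th percentile. Both genotypes with intact Lkb1 thus had Mark and inert tumours within 1.12-fold of each other on average at these percentiles. The median says little about equal size, because in KT_Cas9 mice it lay near the floor of 500 cells. It was 834 cells for Mark and 804 for inert tumours (geometric means). The ratio there was above 0 in 4 of 10 mice, below 0 in 1 and exactly 0 in the others. In KT mice it was below 0 in 1 of 4 and exactly 0 in the others. On the median none of the 24 targeting vectors was called for size in KT_Cas9 minus KT, against 14 on the log-normal mean. At the 99th percentile KT_Cas9 mice gave -0.35 ± 0.80 (SD, n = 10; below 0 in 8 of 10), a tail that holds few tumours per mouse.

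In KTL_Cas9 mice the Mark distribution lay below the inert one from the median upward. The mean log2 ratio was -0.63 ± 0.90 at the median, where Mark tumours had a geometric mean of 3053 cells over mice and inert tumours 4711 cells. It was -0.72 ± 0.65 at the 60th percentile, -0.65 ± 0.57 at the 70th and -0.62 ± 0.79 at the 90th (all SD, n = 7). At each of the percentiles from the 50th to the 90th, 6 of 7 mice were below 0, then 5 at the 95th and 3 at the 99th. The ratio was therefore below 0 from the median to the 95th percentile in most mice. Percentiles of tumours above a floor also fall when more small tumours pass it, so they do not place the shortfall in a range of size. At the 99th percentile, again a tail of few tumours per mouse, the mean was -0.52 ± 1.02 (SD, n = 7). Whether the shortfall ends there cannot be told.

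**Figure D2:**
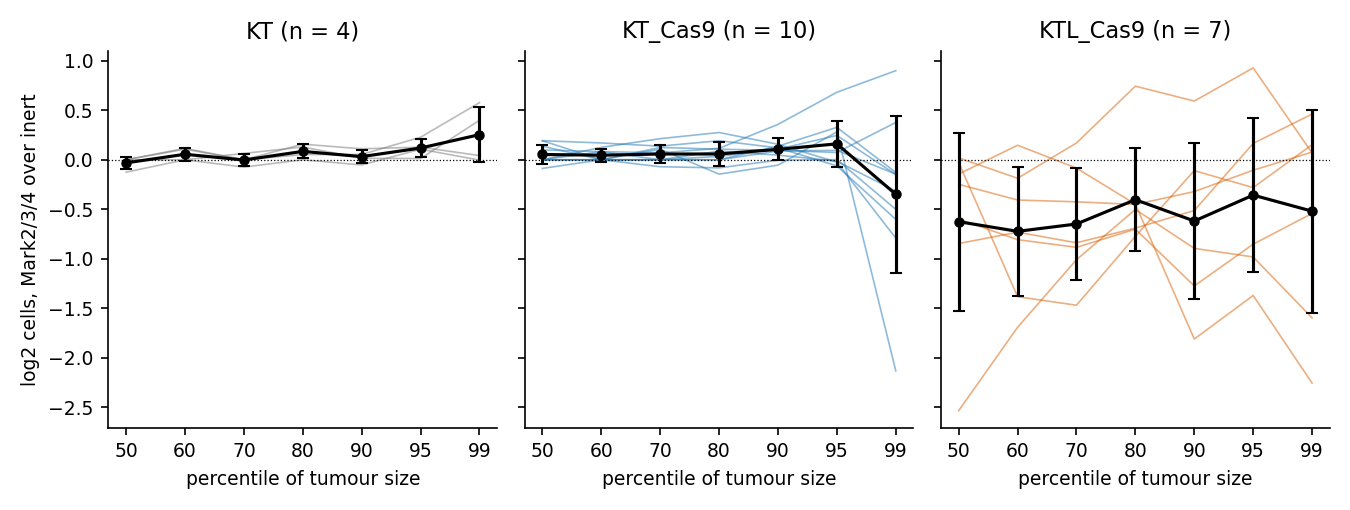
Log2 ratio of Mark2/Mark3/Mark4 to inert tumour size in cells at 7 percentiles (x axis), with 1 thin line per mouse and the mean ± SD over mice in black. The KT and KT_Cas9 means lie between -0.03 and 0.16 up to the 95th percentile, where KT_Cas9 replicate 8 reaches 0.68, while the KTL_Cas9 means lie between -0.72 and -0.36, with replicate 8 above 0 over most of the range.

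Counting tumours in bands of size shows in which bands the shares of Mark and inert tumours differed in KTL_Cas9 mice. Tumours of 500 to under 1500 cells made up 36.9% ± 10.2 of Mark tumours and 33.0% ± 11.5 of inert tumours (SD, n = 7), a difference of 3.92 ± 2.75 percentage points that was above 0 in 7 of 7 mice, from 0.795 to 8.29. Tumours of at least 50000 cells made up 13.9% of Mark and 17.3% of inert tumours, a difference of -3.43 ± 4.88 points that was below 0 in 6 of 7 mice. Replicate 8 again stood apart, with 6.86 points more of its Mark than of its inert tumours at this size. No test was run on the bands, and a share in one band lowers the shares in the others.

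In KTL_Cas9 mice Mark tumours thus leaned towards the smallest band, and the means of the same bands differed little in the other genotypes. The smallest band held 64.1% of Mark and 64.4% of inert tumours in KT mice, and 78.3% and 79.8% in KT_Cas9 mice. The difference was -0.24 ± 1.14 points in KT mice (SD, n = 4), from -0.93 to 1.45. It was -1.50 ± 2.81 points in KT_Cas9 mice (n = 10), from -7.20 to 2.17, a spread as wide as in KTL_Cas9 mice. Summed over mice, there were 0.967 Mark tumours per inert tumour in the smallest band of KTL_Cas9 mice, 0.870 from 1500 to under 5000 cells, 0.821 from 5000 to under 50000 and 0.639 from 50000 cells. The same ratios in KT mice were 0.675, 0.665, 0.709 and 0.718, and in KT_Cas9 mice 0.775, 0.792, 0.869 and 0.806. The summed KTL_Cas9 ratio was therefore above the KT ratio in each band below 50000 cells and below it from 50000 cells. That last band held 115 Mark and 180 inert tumours in KTL_Cas9 mice, and 28 and 39 in KT mice. Single KTL_Cas9 mice ran from 15 Mark and 39 inert tumours in replicate 4 to 11 and 10 in replicate 8. The difference from KT mice in this band was not tested.

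**Figure D3:**
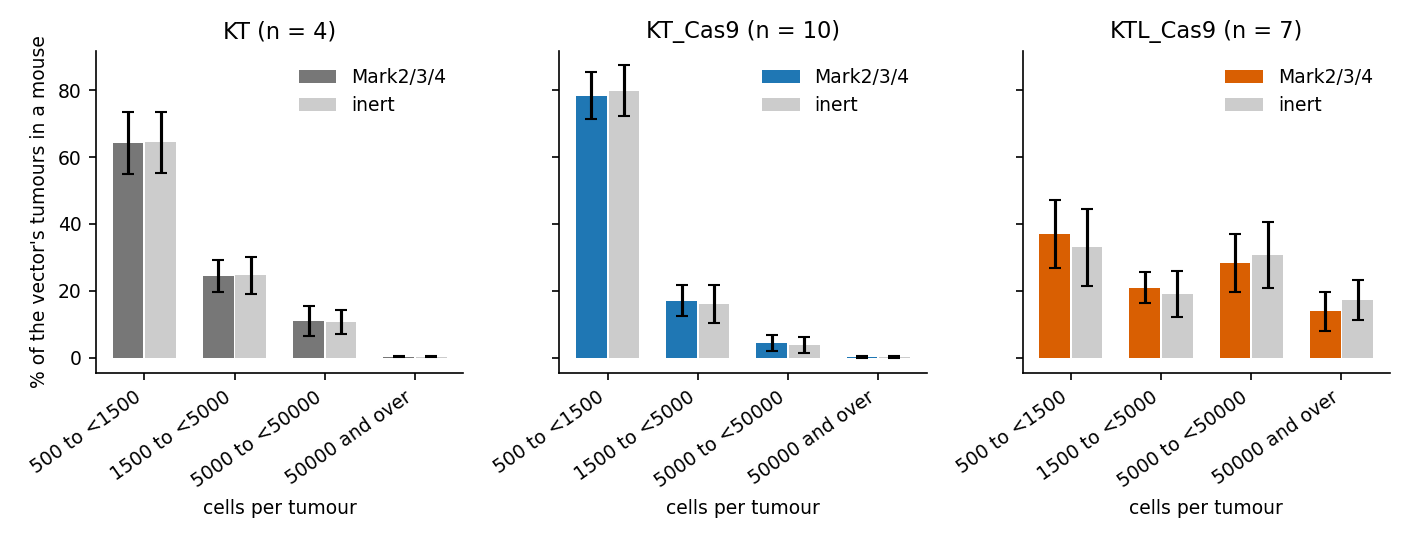
Share of the tumours of a mouse in 4 bands of size (x axis, cells per tumour; y axis, percent), for the Mark2/Mark3/Mark4 vector in colour and inert vectors in grey, as mean ± SD over mice. Mark and inert bars are close in KT and KT_Cas9 mice, while in KTL_Cas9 mice Mark bars are higher in the band from 500 cells (36.9% against 33.0%) and lower in that from 50000 cells (13.9% against 17.3%).

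The number of tumours asks how often a cell with the vector grew past the floor. The raw ratio to inert depends on how much of each vector was in the pool, and KT mice, without cutting, give that share. There were 0.695, 0.693, 0.676 and 0.653 Mark tumours per inert tumour in KT replicates 1, 2, 3 and 5, a log2 mean of -0.56 ± 0.04 (SD, n = 4). In KT_Cas9 mice the ratio ran from 0.620 over a median of 0.743 to 1.02, a log2 mean of -0.38 ± 0.23 (n = 10). In KTL_Cas9 mice it ran from 0.730 over 0.809 to 1.13, a log2 mean of -0.18 ± 0.25 (n = 7). All 7 KTL_Cas9 mice lay above all 4 KT mice, while KT_Cas9 mice overlapped both groups.

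On the log2 scale, KTL_Cas9 minus KT was 0.37 ± 0.10 (SE), a 1.30-fold difference (exact permutation p = 0.0182, adjusted p = 0.109). None of 24 vectors was called there (0%), with 5 at an unadjusted p under 0.05, and limma called 1. KT_Cas9 minus KT was 0.17 ± 0.08 (p = 0.157, adjusted 0.474, exact permutation; 0% called, and none at an unadjusted p under 0.05 or by limma). KTL_Cas9 minus KT_Cas9 was 0.20 ± 0.12 (p = 0.109, adjusted 0.262, exact permutation), where 2 of 24 vectors were called, both higher (8.33%). The number of Mark tumours did not pass the adjusted test in any of the 3 comparisons. Of the other 4 vectors against AMPK-related kinases outside the Sik family, 3 had a positive difference for KT_Cas9 minus KT, and 4 in both comparisons with KTL_Cas9 mice. Over all 24 targeting vectors the difference was positive in 16 for KT_Cas9 minus KT, in 22 for KTL_Cas9 minus KT and in 18 for KTL_Cas9 minus KT_Cas9.

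Cell burden, the summed cells of all tumours of a vector over those of inert tumours, combines number and size. The Mark vector held 0.625 to 0.826 times the inert cells in KT mice, 0.266 to 1.11 times in KT_Cas9 mice and 0.287 to 1.03 times in KTL_Cas9 mice. The log2 means were -0.47 ± 0.16 (SD, n = 4), -0.63 ± 0.68 (n = 10) and -0.66 ± 0.65 (n = 7), and the 3 groups overlapped. The 2 lowest KT_Cas9 mice, replicates 4 (-1.91) and 6 (-1.65), were those in which 1 inert tumour held 64.3% and 54.0% of all inert cells.

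Burden did not differ beyond its spread in any comparison. KT_Cas9 minus KT was -0.16 ± 0.23 (SE; exact permutation, adjusted p = 0.951), while 8 of 24 vectors were called higher (33.3%). KTL_Cas9 minus KT was -0.19 ± 0.26 (exact permutation, adjusted p = 0.836; 0% called, 5 at an unadjusted p under 0.05, 1 by limma and 5 by edgeR). KTL_Cas9 minus KT_Cas9 was -0.02 ± 0.33 (exact permutation, adjusted p = 0.941), while 5 of 24 vectors were called, all lower (20.8%). Without the largest tumour of each vector and mouse, KT_Cas9 minus KT was 0.0043 and KTL_Cas9 minus KT_Cas9 was -0.22, neither past the threshold.

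As a share of everything in the pool, Mark tumours held similar shares of all tumours in the 3 groups. Their median share of all cells was lower in KT_Cas9 (1.64%) and KTL_Cas9 mice (2.92%) than in KT mice (5.25%). Mark tumours made up 4.87% to 5.28% of tumours per KT mouse, 3.97% to 7.30% per KT_Cas9 mouse and 4.76% to 6.77% per KTL_Cas9 mouse. Their share of all tumour cells lay between 4.60% and 5.66% in KT mice, between 0.889% and 2.45% in KT_Cas9 mice and between 1.90% and 5.75% in KTL_Cas9 mice. The ranges for cells of KT and KT_Cas9 mice did not overlap, but this share depends on the cells of all other vectors and was not tested. The burden against inert tumours, given above, is the measure that does not depend on them.

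As more cells were required of a tumour, the mean size ratio moved down in KT_Cas9 mice and up in KTL_Cas9 mice. In KT mice the log2 size ratio was 0.05, 0.08 and 0.11 at floors of 500, 1500 and 5000 cells (n = 4 each). In KT_Cas9 mice it was 0.04 (n = 10), -0.07 (n = 8) and -0.29 (n = 6), since fewer mice kept at least 20 inert tumours. In KTL_Cas9 mice it was -0.67, -0.43 and -0.30 (n = 7 each). The gap between KTL_Cas9 and KT_Cas9 mice thus closed from both sides as the floor rose. Neither the KT_Cas9 value at 5000 cells (exact sign-flip permutation, adjusted p = 0.0882) nor its difference from KT mice (-0.39, exact permutation, adjusted p = 0.0714) passed the threshold.

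**Figure D4:**
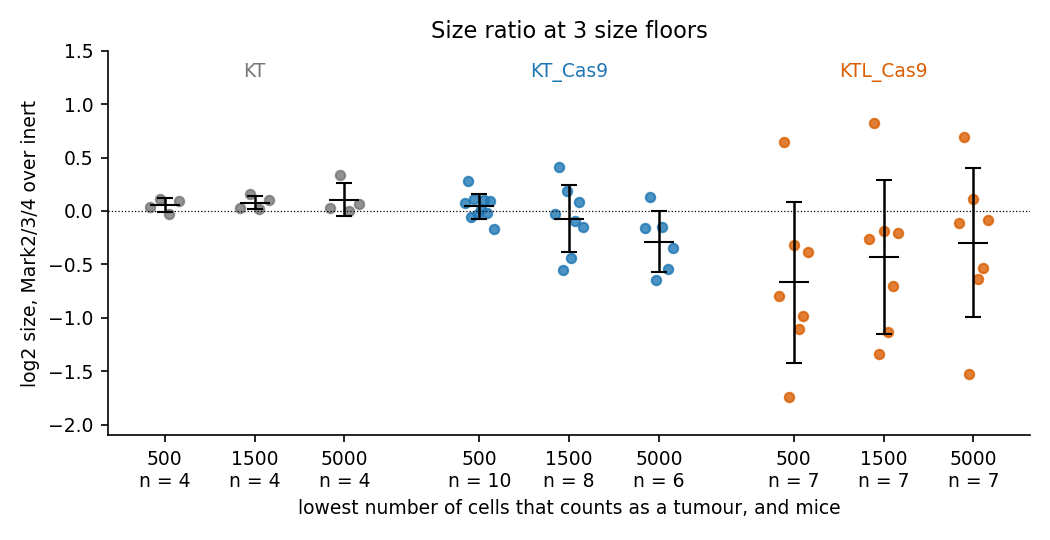
Log2 ratio of Mark2/Mark3/Mark4 to inert tumour size (y axis) with the floor for a tumour set at 500, 1500 or 5000 cells (x axis, with the number of mice), 1 point per mouse, bars mean ± SD. KT_Cas9 means move from 0.04 to -0.29 and KTL_Cas9 means from -0.67 to -0.30 as the floor rises.

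The other Lkb1 substrates in the pool, set beside the Mark vector in the same mice, share its inert tumours, so their ratios to inert are not independent of it. Of the other 4 vectors against AMPK-related kinases outside the Sik family (a dual and a triple vector for Ampk1/Ampk2, and 1 each for Nuak1/Nuak2 and Snrk), none was called for size by exact permutation in any of the 3 comparisons between groups, against 58.3%, 0% and 37.5% of all 24 vectors. In limma the triple Ampk1/Ampk2 vector was called lower in KTL_Cas9 minus KT_Cas9 (adjusted p = 0.0429). In KTL_Cas9 mice their log2 size ratios to inert were 0.26 ± 0.49 for Nuak1/Nuak2, 0.25 ± 0.48 for Snrk, 0.26 ± 0.78 for the dual and -0.77 ± 1.08 for the triple Ampk1/Ampk2 vector (SD, n = 7). The triple Ampk1/Ampk2 vector was thus the one in this list with a mean as low as that of the Mark vector. Outside the list, the 10 vectors against Lkb1, floxed in these mice, also reached such means. They ran from -0.94 ± 0.70 for a triple vector with Lkb1 guide 1 to 0.44 ± 0.18 for a dual vector with Lkb1 guide 1. Another triple vector with Lkb1 guide 1 had -0.66 ± 0.92 (SD, n = 7). All 5 vectors that target more than 1 Sik gene were called higher in KT_Cas9 against KT mice, and 0 of the 4 that target 1 Sik gene.

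Direct contrasts within each mouse cancel the inert tumours. In KT_Cas9 mice Mark tumours were smaller than those of the Sik1/Sik2/Sik3 vector, which targets the salt-inducible kinases, in 10 of 10 mice, by a log2 mean of -0.94 ± 0.46 (SD; exact sign-flip permutation, adjusted p = 0.00781 over 4 contrasts). They did not differ beyond the spread from those of Nuak1/Nuak2 (-0.0019 ± 0.18, adjusted p = 0.973), triple Ampk1/Ampk2 (-0.07 ± 0.38, adjusted p = 0.958) or Snrk (-0.15 ± 0.25, adjusted p = 0.207; exact sign-flip permutation, n = 10). On median size the Sik contrast was -0.03 (adjusted p = 0.75), so the gap to the Sik vector lay above the median tumour. In KT mice all 4 contrasts lay between -0.11 and 0.04 (n = 4), a group too small for an exact p under 0.05.

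In KTL_Cas9 mice 3 of the 4 contrasts were called, each with Mark tumours smaller in 7 of 7 mice. The log2 mean was -2.20 ± 0.95 against Sik1/Sik2/Sik3, -0.93 ± 0.50 against Nuak1/Nuak2 and -0.92 ± 0.52 against Snrk (SD, n = 7; exact sign-flip permutation, adjusted p = 0.0208 for each). These 3 calls were each lost in 6 of 8 other settings, among them the floor of 5000 cells, where the means were -1.43, -0.18 and -0.32 in the same order. Against Nuak1/Nuak2, kinases of the same family that act in adhesion and the cytoskeleton, replicates 2 to 8 gave -1.54, -0.50, -1.22, -0.46, -1.57, -0.75 and -0.47. Here replicate 8, which stood apart in the ratio to inert, lay with the other mice. It was the highest of the 7 mice against Snrk (-0.13) and against triple Ampk1/Ampk2 (1.10). Against the triple Ampk1/Ampk2 vector the contrast was 0.10 ± 0.80 (adjusted p = 0.766, exact sign-flip permutation), with Mark tumours smaller in 4 of 7 mice.

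The change of these contrasts with Lkb1 status was tested between KTL_Cas9 and KT_Cas9 mice, a test added after the data were seen. It was -0.93 ± 0.20 (SE) against Nuak1/Nuak2 (exact permutation p = 5.14e-05, the smallest possible, adjusted 0.000206) and -0.77 ± 0.21 against Snrk (exact permutation, adjusted p = 0.00216). All 7 KTL_Cas9 mice lay below all 10 KT_Cas9 mice in the contrast with Nuak1/Nuak2. The SD was again wider in KTL_Cas9 than in KT_Cas9 mice. It was 0.50 against 0.18 for Nuak1/Nuak2, 0.52 against 0.25 for Snrk and 0.95 against 0.46 for Sik1/Sik2/Sik3. The p-values of these changes may therefore be too small. Against the triple Ampk1/Ampk2 vector the change was 0.17 ± 0.32 (exact permutation, adjusted p = 0.567). The changes against Nuak1/Nuak2 and Snrk were not called from 1500 cells (-0.39 and -0.46, both adjusted p = 0.339, exact permutation), where KT_Cas9 mice are fewer.

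The contrast with the Sik vector changed by -1.26 ± 0.39 (exact permutation, adjusted p = 0.00226) at 500 cells. A change of contrast can come from either vector. The Sik1/Sik2/Sik3 ratio to inert was 0.99 ± 0.45 in KT_Cas9 (SD, n = 10) and 1.53 ± 1.15 in KTL_Cas9 mice (n = 7). The sign of the change turned with the floor, to 0.58 (adjusted p = 0.339) at 1500 and 1.99 (adjusted p = 0.00699) at 5000 cells, both by exact permutation. At 5000 cells Mark tumours were smaller than Sik1/Sik2/Sik3 tumours by -3.42 on the log2 scale in KT_Cas9 (n = 6) and -1.43 in KTL_Cas9 mice (n = 7). In both genotypes the Mark vector stayed below the Sik vector at each floor, and which genotype had the wider gap depended on the floor.

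**Figure D5:**
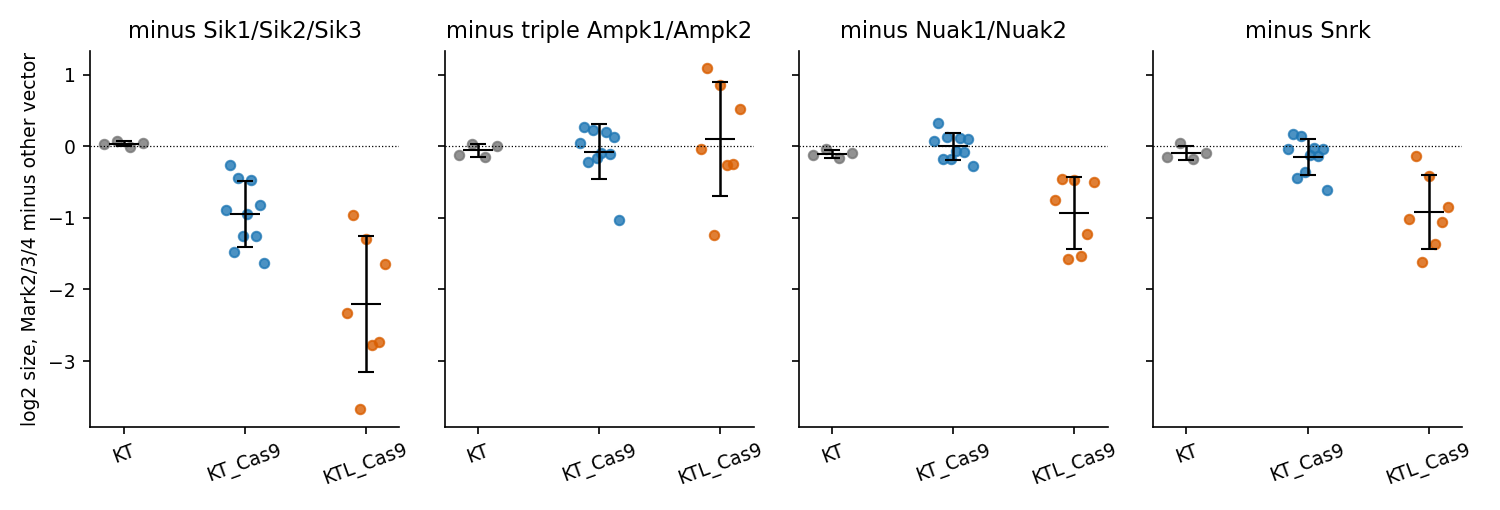
Log2 size of Mark2/Mark3/Mark4 tumours minus that of 4 other vectors in the same mouse (y axis), 1 point per mouse, bars mean ± SD. Against Sik1/Sik2/Sik3 all KT_Cas9 and KTL_Cas9 points lie below 0, against Nuak1/Nuak2 and Snrk all KTL_Cas9 points do, and against triple Ampk1/Ampk2 points lie on both sides.

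Vectors were also ranked by how close their size ratio lay to that of the Mark vector, as the mean absolute difference over mice. In KT_Cas9 mice the closest were the dual Ampk1/Ampk2 vector (0.114 on the log2 scale), Sik3 guide 2 (0.123) and Sik3 guide 1 (0.149; n = 10 mice). In KTL_Cas9 mice they were a triple vector with Lkb1 guide 1 (0.541), a dual vector with Lkb1 guide 2 (0.602) and the triple Ampk1/Ampk2 vector (0.607; n = 7 mice). The lists of the 2 genotypes share no vector, but each holds only 3 of 23 vectors, and their overlap was not tested. The closest vectors in KTL_Cas9 mice lay further from the Mark vector than those in KT_Cas9 mice. Over all 23 vectors the distance ran from 0.541 to 3.13 in KTL_Cas9 mice and from 0.114 to 1.47 in KT_Cas9 mice.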

How the data were processed

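Tumour barcode sequencing of lung genomic DNA was run by the authors, and their deposited table lists, per the file headers, the read count of each barcode in each mouse, its vector and its estimated cells. The deposited counts are raw whole numbers, the lowest of which is 2. The deposited ratio turns reads into cells and equals 500000 cells over the mouse's reads of a standard, whose making is not given in the sources used here, nor is an aligner or a build. Of 1019578 lines 105870 were repeats and were dropped. Mice were grouped by the genotype in the labels, of which an allele common to all groups is not reported here, and numbered in the order of their records, and the labels do not say which mice were litter mates.

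Tumours were barcodes of 500 cells or more (alternatives 1500 and 5000). The minimum was 5 tumours of the vector and 20 inert tumours per mouse, and 4 mice per group, or 3 where leaving one out. Differences between groups were tested with exact permutations of the mouse labels, two-sided (1001, 330 and 19448 splits) and values within a group by exact sign-flips, adjusted by Benjamini-Hochberg over 24 targeting vectors or 4 contrasts at 0.05. Python 3.11.15, numpy 2.4.6, pandas 2.3.3, R 4.3.3, limma 3.58.1 and edgeR 4.0.16 (quasi-likelihood test on reads) were used. The permutation test of size was tried on simulated tumours for KT_Cas9 and KTL_Cas9 each against KT mice, with required recovery set for KT_Cas9 only. KTL_Cas9 minus KT_Cas9, number, burden, the sign-flip tests and the contrasts were not simulated. Alternatives were other measures of size, 10 reads as a minimum, each inert vector alone, no shared barcodes, limma, edgeR and leaving out each mouse. Leaving out the largest tumour and the contrast test between groups were added after the data were seen. By rule the text names the Mark vector, the vectors of the other AMPK-related kinases, and the 3 vectors nearest to it in size. Members and lists were chosen with earlier results of these data known. The reads come from PCR with no molecular identifiers and are not independent molecules, so errors are spreads over mice.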

Additional observations from a re-analysis of the deposited data

Results flagged for a closer look

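The size of Mark2/Mark3/Mark4 tumours relative to inert tumours differed between genotypes under the same vector, by -0.71 (log2, KTL_Cas9 minus KT_Cas9; exact permutation, adjusted p = 0.0184), with 6 of 7 KTL_Cas9 and 4 of 10 KT_Cas9 mice below 0. The within-mouse contrasts of the Mark vector with 3 other vectors also differed between these genotypes, by -1.26 against Sik1/Sik2/Sik3, -0.93 against Nuak1/Nuak2 and -0.77 against Snrk (exact permutation, adjusted p = 0.00226, 0.000206 and 0.00216). These 4 values share the Mark tumours of the same 17 mice, so they are not independent of each other. For each of them the spread was wider in KTL_Cas9 mice, so the p-values may be too small.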

How the results depend on the processing

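Over 23 results on the Mark vector, 481 values were recomputed under alternatives: 395 kept their direction and side of the threshold, 36 lost and 2 gained the call, and 48 turned sign. Leaving out a mouse turned the sign of 19 of 279 values, none of them called, and ended no call. The size difference KTL_Cas9 minus KT_Cas9 lay between -0.93 and -0.53 with a mouse left out (adjusted p 0.0010 to 0.0495). It lost the call at the 95th percentile (-0.52), on arithmetic means (-0.22), at floors of 1500 (-0.36) and 5000 cells (-0.012) and against the inert triple vector alone (-0.84), and kept it in the 7 other settings.

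Size of KT_Cas9 minus KT turned positive at the 90th (0.074) and 95th percentile (0.042), the median (0.085), against the inert triple vector (0.086) and without shared barcodes (0.016), and lay between -0.039 and 0.013 with a mouse left out. Against inert in KT_Cas9 mice it was called at the 90th (0.11) and 95th percentile (0.16) and turned negative on arithmetic means (-0.25), with 10 reads (-0.0076) and at 1500 (-0.073) and 5000 cells (-0.29). Number of KTL_Cas9 minus KT_Cas9 turned at 1500 (-0.016) and 5000 cells (-0.086). Burden of KTL_Cas9 minus KT_Cas9 turned in edgeR (0.00058), at 1500 (0.049) and 5000 cells (0.30) and against the inert dual vector (0.063), and lay between -0.17 and 0.17 with a mouse left out. Burden of KT_Cas9 minus KT turned without shared barcodes (0.043) and without the largest tumour (0.0043), and that of KTL_Cas9 minus KT lay between -0.30 and 0.0027 with a mouse left out.

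Of the contrasts in KTL_Cas9 mice, those with Nuak1/Nuak2, Sik1/Sik2/Sik3 and Snrk lost the call at the 90th percentile (-0.54, -1.67 and -0.45), the 95th (-0.59, -1.68 and -0.33), on arithmetic means (-0.50, -1.77 and -0.53), at 1500 (-0.48, -1.74 and -0.66) and 5000 cells (-0.18, -1.43 and -0.32) and on the median (-1.25, -1.54 and -0.56). A single contrast at the smallest p, 0.0156, has an adjusted p of 0.0625, so a loss can come from the other contrasts. With a mouse left out they lay between -1.01 and -0.82, -2.41 and -1.96, and -1.05 and -0.80. The contrast with triple Ampk1/Ampk2 turned on the median (-0.21) and lay between -0.068 and 0.32 with a mouse left out. In KT_Cas9 mice the Sik contrast lost the call on the median (-0.035). At 5000 cells it was -3.42 over the 6 remaining mice, where the smallest possible p, 0.031, cannot pass alone over 4 contrasts, so its missing call says nothing about stability. The contrast with Nuak1/Nuak2 turned at the 90th (0.046) and 95th percentile (0.12), on the median (0.047) and without shared barcodes (0.046), and lay between -0.039 and 0.028 with a mouse left out. That with Snrk turned on the median (0.021), and that with triple Ampk1/Ampk2 lay between -0.11 and 0.035 with a mouse left out.

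Of the changes of contrast between KTL_Cas9 and KT_Cas9 mice, that with Nuak1/Nuak2 lost the call at the 90th (-0.59) and 95th percentile (-0.70), on arithmetic means (-0.22) and at 1500 cells (-0.39), and turned at 5000 (0.65). That with Sik1/Sik2/Sik3 lost it at the 95th percentile (-0.074) and with 10 reads (-0.87), and turned on arithmetic means (0.75), at 1500 (0.58) and at 5000 cells (1.99). That with Snrk lost it at the 90th (-0.26) and 95th percentile (-0.030), on arithmetic means (-0.28), the median (-0.58) and at 1500 cells (-0.46), and turned at 5000 (0.15). That with triple Ampk1/Ampk2 turned on the median (-0.15).

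Counts of called vectors moved too. For size, KTL_Cas9 minus KT had 3 in place of 0 at the 95th percentile, with 10 reads, against the inert dual vector, in limma and without shared barcodes, and 2 at 1500 and 5000 cells. KTL_Cas9 minus KT_Cas9 had 14 in place of 9 at the 90th percentile. KT_Cas9 minus KT had 9, 8 and 0 in place of 14 at the 90th percentile, on arithmetic means and on the median, and 9 to 16 with a mouse left out. For number, KTL_Cas9 minus KT had 1 in limma and 2 without shared barcodes, and KTL_Cas9 minus KT_Cas9 had 1 in place of 2 with 10 reads, at 1500 cells and in limma, 0 against the inert triple vector, 10 at 5000 cells and 0 to 10 with a mouse left out. For burden, KTL_Cas9 minus KT had 5 in edgeR, 1 in limma, 3 without shared barcodes and 0 to 3 with a mouse left out. KTL_Cas9 minus KT_Cas9 had 8 in place of 5 at 1500 cells and without shared barcodes, 14 at 5000 cells, 12 without the largest tumour and 5 to 10 with a mouse left out. KT_Cas9 minus KT had 13 in place of 8 in edgeR, 14 at 5000 cells, 0 against the inert triple vector and 5 to 14 with a mouse left out. The cause of these changes was not tested. KTL_Cas9 mice had 54 to 252 Mark tumours each and the widest spread in size.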
